A study of Mus musculus with 3 samples.

Results

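Of the 9 genes described here, all but Cdh2 are known chiefly from epithelium. Simple epithelium, the tissue of single cell layers, lines the fluid spaces of the inner ear. The 9 are the adhesion molecule Epcam, the cadherins Cdh1 and Cdh2, and the keratins Krt7, Krt8, Krt18 and Krt19. The splicing regulator Esrp1 and the transcription factor Grhl2 complete the set. All were chosen by gene symbol, with earlier results of these data known, and all 9 stood among the 57180 genes of the deposited table. Polyadenylated RNA was measured in 3 libraries, labelled replicates 1 to 3, of 1 group: wild-type mouse cells of the vestibule, the balance organ, picked for looking like black balls. The labels call these cells macrophages, the series title speaks of melanocytes (pigment cells), and no treatment, transgene or control group is given. The protocols in the labels speak of 18 cells, 9 mice and groups of 3 mice. The age of the mice and the number of cells in each library are not stated. The libraries are therefore read as 3 small pools, and p-values cover the spread between pools alone, which may be technical.

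Keratins form filaments only as pairs of an acidic type I chain and a basic type II chain. Krt18 and Krt19 are type I, Krt7 and Krt8 are type II, and Krt8 with Krt18 is the basic pair of simple epithelia. Cdh1 (E-cadherin) joins epithelial cells to each other at adherens junctions and is tied to actin through catenins, Cdh2 (N-cadherin) does the same in neural and mesenchymal cells, and Epcam is a separate epithelial adhesion molecule outside the cadherin family. Esrp1 sets epithelial patterns of exon use and Grhl2 activates junction genes, Cdh1 among them. In the vestibule such genes are known from supporting cells and the other non-sensory epithelial cells that border the endolymph.

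Promoter sequences were available for 4 of the 9 genes (RefSeq, mouse build GRCm38.p6, from 250 bases before to 50 bases after the transcription start). They are shown because these 4 genes include the 3 most abundant of the set, and because the text below gives the levels of the Snai, Zeb and Twist factors, repressors that bind E-box letters. Capitals mark CAGGTG, or CACCTG where the motif lies on the other strand. The sequences read 5′ to 3′ on the strand of the gene, from chr17:87635729-87636028 (plus strand) for Epcam, chr15:102027966-102028265 (plus strand) for Krt18, chr15:102004293-102004592 (minus strand) for Krt8 and chr15:101412153-101412452 (plus strand) for Krt7.
Epcam: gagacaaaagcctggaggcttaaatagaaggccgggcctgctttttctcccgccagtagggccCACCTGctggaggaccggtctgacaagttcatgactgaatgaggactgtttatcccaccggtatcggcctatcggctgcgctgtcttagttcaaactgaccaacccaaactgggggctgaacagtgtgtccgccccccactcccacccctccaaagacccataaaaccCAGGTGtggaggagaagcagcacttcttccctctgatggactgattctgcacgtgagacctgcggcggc
Krt18: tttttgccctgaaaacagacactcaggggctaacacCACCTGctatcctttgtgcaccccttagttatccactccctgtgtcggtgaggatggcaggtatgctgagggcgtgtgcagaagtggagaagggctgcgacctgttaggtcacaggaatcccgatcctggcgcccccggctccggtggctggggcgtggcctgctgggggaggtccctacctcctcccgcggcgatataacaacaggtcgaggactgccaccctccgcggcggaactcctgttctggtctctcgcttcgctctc
Krt8: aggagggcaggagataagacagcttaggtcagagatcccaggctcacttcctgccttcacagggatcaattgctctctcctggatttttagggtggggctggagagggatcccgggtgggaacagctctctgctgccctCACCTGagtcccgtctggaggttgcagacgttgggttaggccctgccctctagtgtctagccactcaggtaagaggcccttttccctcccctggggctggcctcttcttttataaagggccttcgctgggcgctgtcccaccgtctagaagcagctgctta
Krt7: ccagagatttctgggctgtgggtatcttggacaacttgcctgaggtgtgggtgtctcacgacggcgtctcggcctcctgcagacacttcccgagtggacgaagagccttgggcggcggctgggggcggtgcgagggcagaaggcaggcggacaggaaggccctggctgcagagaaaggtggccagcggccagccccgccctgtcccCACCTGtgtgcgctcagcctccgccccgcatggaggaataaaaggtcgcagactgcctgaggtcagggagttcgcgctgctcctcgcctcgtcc

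The CAGGTG letters, read on either strand, were in all 4 of these promoters, against 6640 of 32851 promoters of the same length (20.2%). Counted from the start site, Epcam held them at -187 and -19, Krt18 at -214, Krt8 at -111 and Krt7 at -44. CAGGTG was chosen with the sequences in view, so the 4 of 4 is a description, and the letters alone show no binding. A second motif that was searched, AACCNGGTT (N being any base), was in none of the 4, against 89 of the 32851 promoters (0.271%).

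The libraries held 14095521 to 18460546 counts, and 22094 to 22376 genes had a count. Across genes, log2 levels of library pairs correlated at a Pearson r of 0.892 to 0.919. Marker lists of many vestibular cell types were present in the same libraries. Of all protein-coding genes tested, 50.5% passed the level test described below. All 8 macrophage markers passed it, led by Lyz2 and C1qb, with a summed level of 4654 to 7600 TPM. So did 7 of 8 markers of supporting and other non-sensory epithelium, led by Gjb6 and Gjb2 (1222 to 1717 TPM summed). That sum lay mostly in Gjb6 and Gjb2, at means of 648 and 628 TPM, while the next marker, Otog, was at 44.4. In which cells Gjb6 and Gjb2 were expressed was not tested. Of hair cell markers 8 of 8 passed (Ocm and Calb2), and of dark and strial cell markers 6 of 8 (Slc12a2 and Atp1b2). Outside epithelium, 6 of 7 melanocyte markers passed (led by Dct and Mlana), 7 of 8 of fibroblasts (Coch and Otos), 6 of 7 of Schwann cells and glia (S100b and Pmp22), 4 of 7 of neurons (Snap25 and Nefl) and 2 of 6 of endothelium (Emcn and Kdr). Of 4 mesothelial markers 0 passed limma's test, 0 had an unadjusted p under 0.05 and 0 passed edgeR's test, with Msln at 4.27, 0.834 and 1.73 TPM, Wt1 at 1.63, 0.821 and 1.35 TPM, and Upk3b and Lrrn4 at 0. Markers of epithelial and of other cells were thus measured together, and in bulk samples of this kind fewer cells of a type and less RNA per cell cannot be told apart.

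Of the 9 genes, 7 stood above 1 TPM and none was without a count in any library. TPM is the level per gene length, scaled to the same total in each library, and a gene passed when limma's moderated test placed its mean log2(TPM + 1) above that of 1 TPM at a Benjamini-Hochberg adjusted p under 0.05. The same test was passed by 10264 of 27265 genes with a count (37.6%) and by 8194 of 16219 protein-coding genes (50.5%). The gene lists of this text, by contrast, keep genes without a count in their totals and medians. The median log2(TPM + 1) was 3.95 over the 9 genes, 1.49 over all genes tested and 2.32 over protein-coding genes tested. The 9 were chosen with earlier results of these data known, which may have shaped this comparison. The 9 genes took 0.0997%, 0.0796% and 0.0779% of all counts in replicates 1, 2 and 3. Their mean levels spanned from 1.94 TPM for Grhl2 to 449 TPM for Krt18.

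**Figure D1:**
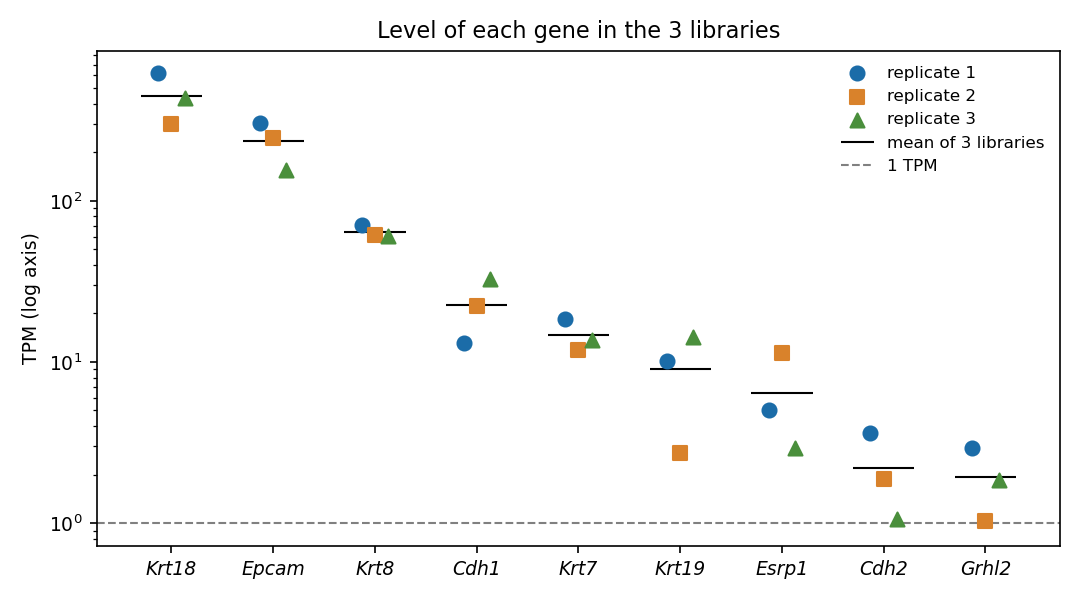
Level of each of the 9 genes in each of the 3 libraries (TPM, log axis), with the mean over libraries. Krt18 and Epcam lie above 100 TPM in every library, and Cdh2 and Grhl2 lie nearest to 1 TPM.

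Among the keratins, Krt18 (chromosome 15, 101936615 to 101940462 in GRCm39, the build of all coordinates from here on) was the most abundant of the 9 genes. It had 6592, 2898 and 4104 counts in replicates 1 to 3, or 618, 298 and 431 TPM, a mean of 449 ± 160.5 TPM (SD, n = 3, as for all errors below; limma adjusted p 1.39e-05). Replicate 1 was highest and replicate 2 lowest, 2.07-fold apart, and every library placed the gene at or above the 98.2 percentile of tested genes. Krt18 made up 86.1%, 79.7% and 83.0% of the summed TPM of the 4 keratins.

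Krt8, the type II partner (chromosome 15, 101905133 to 101912917), had 1033, 813 and 780 counts, or 71.1, 61.4 and 60.2 TPM, a mean of 64.2 ± 5.95 (limma adjusted p 1.43e-05). It was the steadiest of the set: its highest and lowest library differed 1.18-fold. The SD of its log2 level was 0.13, against a median of 0.44 for genes of like level, of which 6.43% had a smaller SD. Scaled by library total alone, its values were 56.0, 53.9 and 55.3 CPM, and their exact Poisson 95% intervals (52.6 to 59.5, 50.2 to 57.7 and 51.5 to 59.4, counting error only) overlapped. Krt8 and Krt18 lie 23697 bp apart with no listed gene between them. A processed pseudogene, Krt8-ps on chromosome 7 (23056550 to 23057494), had 120, 98 and 87 counts, which equalled 11.6%, 12.1% and 11.2% of the Krt8 counts. No source used here says how reads that match both were assigned, so the Krt8 level is uncertain by an amount that was not measured.

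Krt7, the other type II chain (chromosome 15, 101308924 to 101328194), had 1144, 667 and 751 counts, or 18.5, 11.9 and 13.6 TPM, a mean of 14.7 ± 3.45 (limma adjusted p 0.000234). Replicate 1 was again the highest. Krt19, a small type I keratin without a tail domain (chromosome 11, 100031636 to 100039491), had 176, 43 and 221 counts, or 10.2, 2.73 and 14.3 TPM, a mean of 9.06 ± 5.87 (limma adjusted p 0.0109). It was the least steady of the 9: replicate 2 stood 5.25-fold below replicate 3, and 86.5% of genes of like level had a smaller SD. Without replicate 1 the call of Krt19 was lost (limma adjusted p 0.0602).

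The 2 type I chains summed to a mean of 458 TPM and the 2 type II chains to 78.9 TPM. In TPM, type I exceeded type II 7.01-, 4.11- and 6.04-fold in replicates 1 to 3, a difference in log2(TPM + 1) of type II minus type I of -2.47 ± 0.40. In CPM, without length, type I was 3.11-, 1.99- and 2.82-fold higher. For the pair Krt8 minus Krt18 the difference was -2.73 ± 0.43, with Krt18 8.70-, 4.86- and 7.17-fold higher. Both differences had the same sign in 3 of 3 libraries, and both gave p = 0.25 in an exact two-sided permutation of signs over libraries, the smallest p that 3 libraries allow, or 0.286 adjusted over the 8 differences between genes that were tested. This test cannot reach 0.05 here, so size and agreement between libraries are given instead.

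Krt8 exceeded Krt7 by 2.08 ± 0.20 in log2(TPM + 1), or 3.84-, 5.18- and 4.42-fold, in 3 of 3 libraries (exact permutation p = 0.25, adjusted 0.286). This difference rests on gene length: in CPM, which does not use length, it was 0.06 ± 0.21 and Krt8 was 0.903, 1.22 and 1.04 times Krt7. With the length of the longest GENCODE M21 coding transcript it was 1.09 ± 0.20. Krt18 exceeded Krt19 by 5.65 ± 0.76, or 60.8-, 109- and 30.2-fold in TPM and 37.5-, 67.4- and 18.6-fold in CPM. In TPM, Krt7 and Krt19 could not be ranked: Krt7 minus Krt19 was 0.81, 1.79 and -0.07 in replicates 1 to 3, a mean of 0.84 ± 0.93 that is smaller than its spread (exact permutation p = 0.5, adjusted 0.5). Krt7 was the higher in 3 of 3 libraries in CPM (6.5-, 15.5- and 3.40-fold) and with the longest transcript (2.50-, 5.97- and 1.31-fold), so their order depends on the length used.

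**Figure D2:**
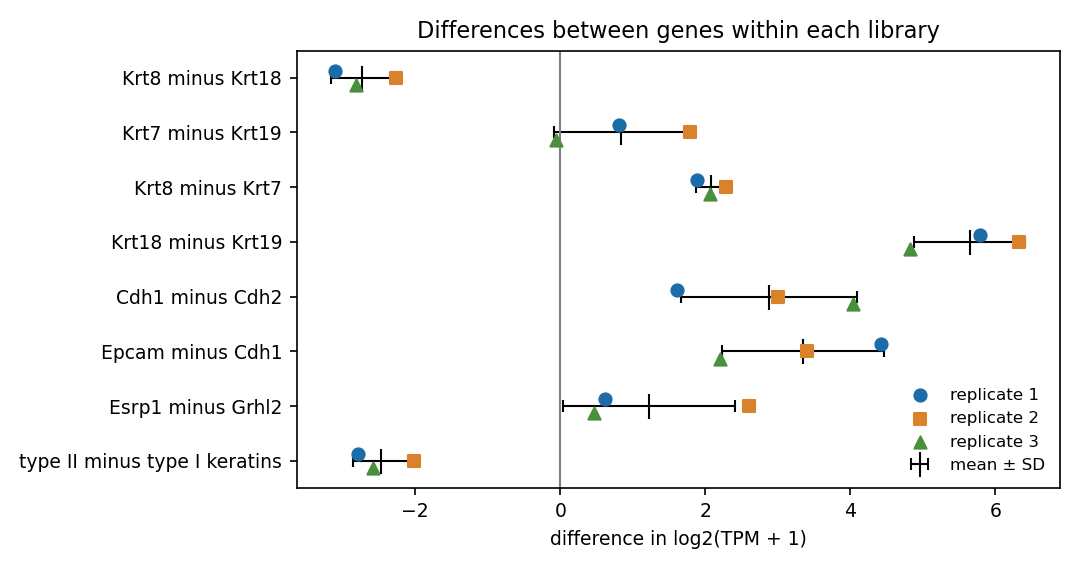
Difference in log2(TPM + 1) between pairs of the genes, and between summed type II and type I keratins, in each library with the mean and SD over 3 libraries. Each difference keeps its sign in every library except Krt7 minus Krt19, which is close to 0 in replicate 3.

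Epcam (chromosome 17, 87943407 to 87958557) was the second most abundant of the set. It had 8123, 5963 and 3699 counts, or 303, 244 and 155 TPM, a mean of 234 ± 74.6 (limma adjusted p 1.50e-05). Replicate 1 was highest and replicate 3 lowest, 1.96-fold apart, and all 3 libraries were at or above the 96.5 percentile. Counted without length, Epcam was the highest of the 9 at a mean of 366 CPM, against 280.1 CPM for Krt18, in 2 of 3 libraries.

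Cdh1 (chromosome 8, 107329983 to 107396878) had 457, 701 and 1022 counts, or 13.1, 22.1 and 32.9 TPM, a mean of 22.7 ± 9.90 (limma adjusted p 0.000270). Here replicate 3 was highest and replicate 1 lowest, 2.51-fold apart, the opposite end from Epcam. Cdh2 (chromosome 18, 16721934 to 16942303) had 259, 123 and 68 counts, or 3.62, 1.89 and 1.07 TPM, a mean of 2.19 ± 1.30, and did not pass (limma adjusted p 0.255). In CPM its values were 14.0, 8.15 and 4.82. Their exact Poisson 95% intervals (12.4 to 15.8, 6.78 to 9.73 and 3.75 to 6.12) did not overlap, so the libraries differed in Cdh2 by more than counting error. The SD of its log2 level was 0.58, below the median of 0.67 for genes of like level.

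Cdh1 minus Cdh2 was 1.61, 3.00 and 4.04 in log2(TPM + 1), a mean of 2.88 ± 1.22, and Cdh1 was 3.62-, 11.7- and 30.8-fold higher in TPM. The folds were smaller with the longest transcript (1.93-, 6.23- and 16.4-fold) and in CPM (1.76-, 5.70- and 15-fold). E-cadherin was above N-cadherin in 3 of 3 libraries, but by very different amounts (exact permutation p = 0.25, adjusted 0.286). Epcam exceeded Cdh1 by 3.34 ± 1.12, or 23.1-, 11.0- and 4.70-fold, also in 3 of 3 libraries (exact permutation p = 0.25, adjusted 0.286). With the longest transcript these folds were 38.6, 18.5 and 7.86.

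Of the 2 regulators, Esrp1 (chromosome 4, 11331933 to 11386783) had 351, 718 and 183 counts, or 5.04, 11.3 and 2.95 TPM, a mean of 6.44 ± 4.36 (limma adjusted p 0.0154). Replicate 2 stood 3.84-fold above replicate 3, and the call did not hold when replicate 1 was left out (adjusted p 0.0565 by limma) or when replicate 2 was (0.0969). Grhl2 (chromosome 15, 37233280 to 37363813) had 270, 87 and 153 counts, or 2.93, 1.04 and 1.86 TPM, a mean of 1.94 ± 0.947, and did not pass (limma adjusted p 0.297). It was highest in replicate 1 and lowest in replicate 2, the library in which Esrp1 was highest. Esrp1 minus Grhl2 was 1.23 ± 1.19 in log2(TPM + 1), above 0 in 3 of 3 libraries (exact permutation p = 0.25, adjusted 0.286). It fell to 0.54 without replicate 2, where Esrp1 was 10.9-fold above Grhl2 against 1.72- and 1.59-fold in the other libraries.

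The start of Grhl2 overlaps a long noncoding RNA gene, Gm16136 (chromosome 15, 37232035 to 37233600), over 321 bp. Gm16136 had 3439, 1350 and 1121 counts, 12.7, 15.5 and 7.33 times those of Grhl2, and stood at 69.4 ± 40.4 TPM (limma adjusted p 8.73e-05). No source used here says whether counting used strand, so reads from the shared stretch cannot be assigned and both levels are uncertain. Gm671, which overlaps Krt7, had 16, 36 and 0 counts, and the other overlapping genes (Gm15485 at Cdh2, Gm36026 at Krt8, Gm16137 and Gm16138 at Grhl2) had 0 counts in all 3 libraries.

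Ordered by mean TPM, the genes ran Krt18, Epcam, Krt8, Cdh1, Krt7, Krt19, Esrp1, Cdh2 and Grhl2. The steps from Krt18 to Epcam, Epcam to Krt8, Krt8 to Cdh1 and Esrp1 to Cdh2 held in 3 of 3 libraries. The steps from Cdh1 to Krt7, Krt7 to Krt19, Krt19 to Esrp1 and Cdh2 to Grhl2 held in 2 of 3, so these neighbours did not differ beyond their spread. With 3 libraries no neighbouring pair can pass an exact test at 0.05.

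The order also depended on the length that the deposited values use. That length, recovered as the count divided by FPKM and library total, equalled the longest coding transcript for Krt8 and Krt18 (ratio 1.00 for each) and was close to it for Cdh1 (1.06). It was 1.48 times that transcript for Krt19, 1.77 for Epcam, 1.99 for Cdh2, 2.03 for Krt7, 2.43 for Esrp1 and 2.51 for Grhl2, against a median ratio of 1.39 over all genes compared. A longer length lowers a TPM value. With longest-transcript lengths the means were 273 TPM for Krt18, 253 for Epcam, 39.2 for Krt8, 18.2 for Krt7, 14.7 for Cdh1, 9.61 for Esrp1, 8.17 for Krt19, 2.96 for Grhl2 and 2.65 for Cdh2. Krt7 and Cdh1, Esrp1 and Krt19, and Grhl2 and Cdh2 thus changed places, and Krt18 stayed above Epcam in 2 of 3 libraries.

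**Figure D3:**
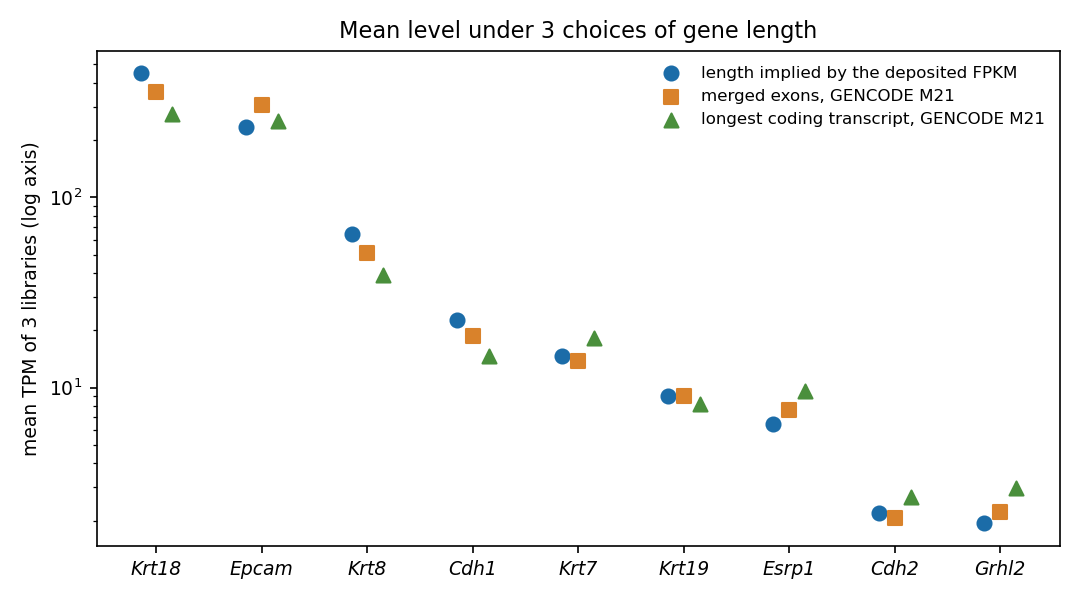
Mean level of each gene over 3 libraries (TPM, log axis) with the length implied by the deposited values, with the merged exons and with the longest coding transcript of GENCODE M21. Krt18 is highest, then Epcam, then Krt8, under all 3 choices, while with the longest transcript 3 pairs of genes lower in the order change places.

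The 9 genes did not share an order of libraries. Krt18, Krt7 and Grhl2 were highest in replicate 1 and lowest in replicate 2, and Epcam, Cdh2 and, by a small margin, Krt8 were highest in replicate 1 and lowest in replicate 3. Cdh1 ran the other way, Krt19 was highest in replicate 3 and lowest in replicate 2, and Esrp1 was highest in replicate 2 and lowest in replicate 3. The mean log2(TPM + 1) of the supporting and non-sensory epithelium markers was 5.75, 5.0 and 4.48 in replicates 1 to 3, the library order of Epcam, Cdh2 and Krt8, which 4 of the 8 markers had singly. The hair cell markers had the same order in their mean, at 5.37, 4.82 and 4.30, but 1 of the 8 had it singly, 5 were lowest in replicate 2, and Gfi1 was at 46.8, 55.4 and 0.622 TPM. The macrophage markers, at 6.90, 7.07 and 7.64, and the endothelial markers, at 1.5, 1.81 and 1.94, had the library order of Cdh1 in their means. Of the macrophage markers 4 of 8 had it singly, while Lyz2 and Cd68 were highest in replicate 1, and so was the list's summed TPM. Of the endothelial markers 1 of 6 had it singly. The part of these lists in the levels of the 9 genes was not tested, since 3 libraries have few possible orders.

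**Figure D4:**
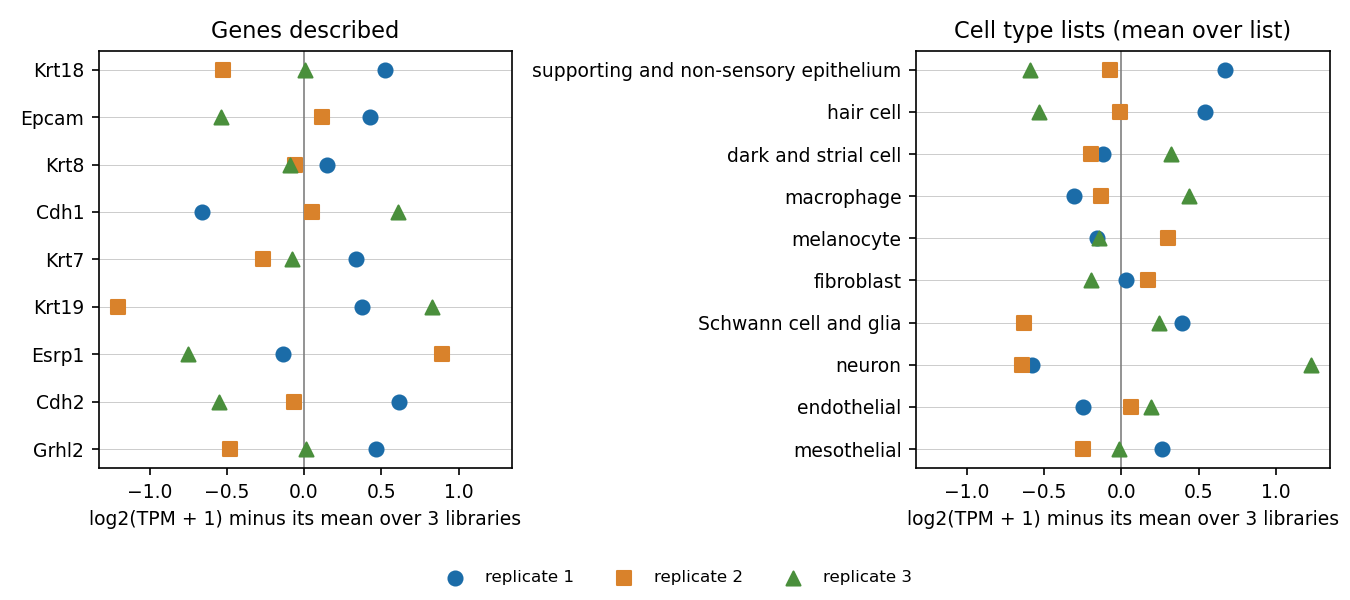
Log2(TPM + 1) of each gene (left) and mean of each cell type list (right) in each library, minus its mean over the 3 libraries. Epcam, Cdh2 and the means of the supporting and hair cell lists are highest in replicate 1 and lowest in replicate 3, and Cdh1 and the means of the macrophage and endothelial lists run the other way, though many single markers depart from their list's mean.

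By the largest difference from the gene's log2(TPM + 1) in any of the 3 libraries, the profiles nearest to Epcam were those of Gm3571 (0.09), Ubb-ps (0.13) and Gm13782 (0.13). Those nearest to Krt18 were Crip2 (0.15), Gm4735 (0.17) and Rpsa-ps10 (0.23), and those nearest to Cdh2 were Rad1 (0.10), Map3k21 (0.10) and Dcaf10 (0.11). Within 0.25 there were 13 genes for Epcam, 3 for Krt18 and 39 for Cdh2, so at low levels many genes share a profile over 3 libraries.

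Across the whole keratin family, the table lists 55 keratin symbols, of which 21 had a count and 7 passed the test. The share over protein-coding genes tested was 50.5%. The 4 keratins described took 89.7%, 81.9% and 83.9% of the family's summed TPM in replicates 1 to 3, and 34 of the 51 others were at 0 in all libraries. The 3 others that passed were Krt10, Krt23 and Krt28. Krt10, a type I keratin of the upper epidermis, was at 40.0, 35.2 and 41.7 TPM, a mean of 39.0 ± 3.36 (limma adjusted p 2.20e-05). Krt23, another type I keratin, was at 30.0, 30.8 and 24.5 TPM, a mean of 28.4 ± 3.42 (limma adjusted p 3.83e-05). Both lay between Krt8 and Cdh1 in level, and both varied little between libraries. Krt28, a hair follicle keratin, was at 2.24, 3.19 and 6.23 TPM and its call (limma adjusted p 0.0484) was lost in 7 alternatives, among them those without replicate 1 (0.0732), 2 (0.104) or 3 (0.199).

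Apart from Krt10, most keratins of stratified epithelium had no count. Of 10 on the list, 1 passed (Krt10), against 50.5% of protein-coding genes tested. Krt4, Krt6a, Krt13, Krt14, Krt15, Krt16 and Krt17 had 0 counts in every library. That allows up to 0.163, 0.199 and 0.213 CPM in replicates 1 to 3 (3 counts, counting error only). Krt1, the type II partner of Krt10 in epidermis, was at 0.493, 0.123 and 0.226 TPM, and Krt5, of the basal layer, at 1.90, 0.269 and 4.06 TPM. The list's median log2(TPM + 1) was 0.00. Of 3 other simple epithelial keratins 1 passed, Krt23. Krt20 was at 0.350, 10.8 and 8.47 TPM, low in replicate 1 alone. It did not pass (limma adjusted p 0.123) except without replicate 1 (0.00735) and with edgeR's test (0.00720).

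Of 10 other intermediate filament genes, 3 passed, against 50.5% of protein-coding genes tested, with a list median of 1.41. Vim, the filament of mesenchymal and many non-epithelial cells, was at 36.5, 20.9 and 42.0 TPM, a mean of 33.1 ± 10.9 (limma adjusted p 8.68e-05), below Krt8 and above Cdh1 in mean. The other 2 were the nuclear lamin Lmna, at a mean of 12.1 TPM, and Synm, at 6.72 TPM.

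In the cadherin family, 23 symbols starting with Cdh were listed, 18 had a count and 3 passed: Cdh1, Cdh19 and Cdh11. The share over protein-coding genes tested was 50.5%. Cdh1 and Cdh2 together took 55.0%, 46.7% and 49.8% of the family's summed TPM. Cdh19, a cadherin of Schwann cells and their precursors, was at 4.90, 8.75 and 2.78 TPM (limma adjusted p 0.0172). Its call was lost without replicate 1 (0.0707), without replicate 2 (0.112), with a pseudocount of 5 (0.0504) and with the longest transcript (0.0670). Cdh11, a cadherin of mesenchymal cells, was at 5.30, 4.48 and 5.85 TPM, a mean of 5.21 ± 0.692 (limma adjusted p 0.00684). Of the 8 other cadherins on the fixed list, Cdh11 alone passed. The endothelial Cdh5 was at 0, 1.60 and 8.46 TPM and Cdh3 at 0.215, 4.46 and 4.72 TPM, both lowest in replicate 1, as was Cdh1, and the kidney and gut cadherins Cdh16 and Cdh17 were at 0.

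Among 12 partners of cadherins at the adherens junction, 6 passed, near the 50.5% of protein-coding genes tested, and the list median was 2.67. Beta-catenin (Ctnnb1), which binds the cadherin tail, was at 92.9, 74.3 and 53.1 TPM, a mean of 73.4, above Cdh1 in every library. Plakoglobin (Jup), which can take its place and is shared with desmosomes, was at 16.9, 14.6 and 19.9 TPM. Alpha-catenin (Ctnna1), the link to actin, was at 36, 1.09 and 25.1 TPM, low in replicate 2 alone. Its call (limma adjusted p 0.0361) was lost without replicate 1 (0.152), without the trend (0.0711) and with a pseudocount of 5 (0.0527). Vinculin (Vcl) was at 19.8, 17.1 and 0 TPM and did not pass (limma adjusted p 0.126). It passed without replicate 3 (5.95e-06), with edgeR's test (0.00383) and in CPM (0.0487). All calls in CPM are against 1 CPM, a level that long genes meet more easily than 1 TPM. The others that passed were Nectin2, Ctnnd1 and Afdn, and Ctnna3 was at 0. Afdn was lost without replicate 1 (0.127), without replicate 2 (0.0942) and with a pseudocount of 5 (0.0583).

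Desmosomes, the junctions to which keratin filaments attach, had 7 of 12 genes above 1 TPM and a list median of 2.51. Over protein-coding genes tested the share was 50.5% and the median 2.32. Perp, a membrane protein needed for desmosomes, was at 93.1, 91.2 and 55.6 TPM. Plakophilin Pkp4 was at 24.7, 9.15 and 15.4 TPM and Pkp1 at 11.0, 5.67 and 7.0 TPM. Desmoplakin (Dsp), which binds keratins directly, was at 9.87, 7.80 and 4.93 TPM, and Pkp2, Pkp3 and the desmosomal cadherin Dsg2 passed as well. Without replicate 1, Pkp3 (0.0544) and Dsg2 (0.143) were lost. Dsg2 was also lost without replicate 3 (0.0548) and with a pseudocount of 5 (0.0639). The cadherins of stratified epithelium, Dsg3 and Dsc3, were at 0, and Dsc2 was at 0.765, 0.0894 and 0.566 TPM.

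Of 18 other genes of the epithelial programme, 9 passed, near the 50.5% of protein-coding genes tested. Among the 18, 11 had an unadjusted p under 0.05, and the list median was 2.46. The membrane protease inhibitor Spint2 was at 390.1, 244 and 336 TPM, in the range of Epcam and Krt18. Rab25, a GTPase of epithelial recycling, was at 107, 66.4 and 50.6 TPM and the claudin Cldn7, a partner of Epcam, at 79.8, 33.4 and 45.3 TPM. Ap1m2, an epithelial sorting adaptor, was at 56.2, 37.0 and 24.3 TPM, with the library order of Epcam. The factors Klf5, Ovol2 and Elf3 and the junction genes Lsr and Marveld3 also passed. Elf3 was lost without replicate 2 (0.120), without replicate 3 (0.0981) and with a pseudocount of 5 (0.0694). Relatives of the 2 regulators were low or variable: Grhl1 was at 10.9, 5.50 and 1.07 TPM (limma adjusted p 0.0690), Esrp2 at 0.527, 2.26 and 0.346 TPM, and Grhl3 at 0, as was Ovol1. Grhl1 passed in 6 alternatives, at 0.00161 without replicate 3, 0.00218 with edgeR, 0.00377 in CPM, 0.0324 among genes counted in all 3 libraries, 0.0396 with a pseudocount of 0.1 and 0.0417 with the longest transcript.

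Repressors of Cdh1 were measured in the same libraries. Of 7, 2 passed, against 50.5% of protein-coding genes tested, with a list median of 1.35. Twist1 was at 25.2, 17.1 and 38.0 TPM, a mean of 26.8 ± 10.6 (limma adjusted p 0.000146), close to the mean of Cdh1. Twist2 was at 5.07, 2.00 and 10.0 TPM. Its call (limma adjusted p 0.0310) was lost without replicate 1 (0.109), without replicate 3 (0.126) and with a pseudocount of 5 (0.0707). Snai2 was at 12.7, 6.66 and 0 TPM and did not pass (limma adjusted p 0.203). It passed without replicate 3, the library in which it had no count (limma adjusted p 0.000555), and with edgeR's test (0.0243). Snai1 was at 0, 0.274 and 2.61 TPM, Zeb1 at 2.04, 1.34 and 1.34, Zeb2 at 2.15, 0.812 and 1.84, and Snai3 at 0. Zeb1 and Zeb2 passed in CPM alone of the alternatives (0.000770 and 9.08e-05). Bulk pools do not show whether these RNAs were in the same cells as Cdh1.

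Of 10 genes that anchor epithelium to its basement membrane, 2 passed, against 50.5% of protein-coding genes tested, with a list median of 1.20. Itgb1, the integrin chain shared by many cell types, was at 45.7, 51.1 and 37.3 TPM. The linker Dst was at 3.05, 1.59 and 1.95 TPM and did not pass (limma adjusted p 0.195), but did in CPM (4.02e-06), without the trend (0.0426) and with edgeR's test (0.00709). The hemidesmosome genes Itgb4, at 1.66, 1.32 and 1.07 TPM, and Itga6, at 1.80, 0.371 and 1.02 TPM, did not pass, except Itgb4 in CPM (0.0305), and Col17a1 had a level above 0 in replicate 2 alone, at 0.0218 TPM.

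**Figure D5:**
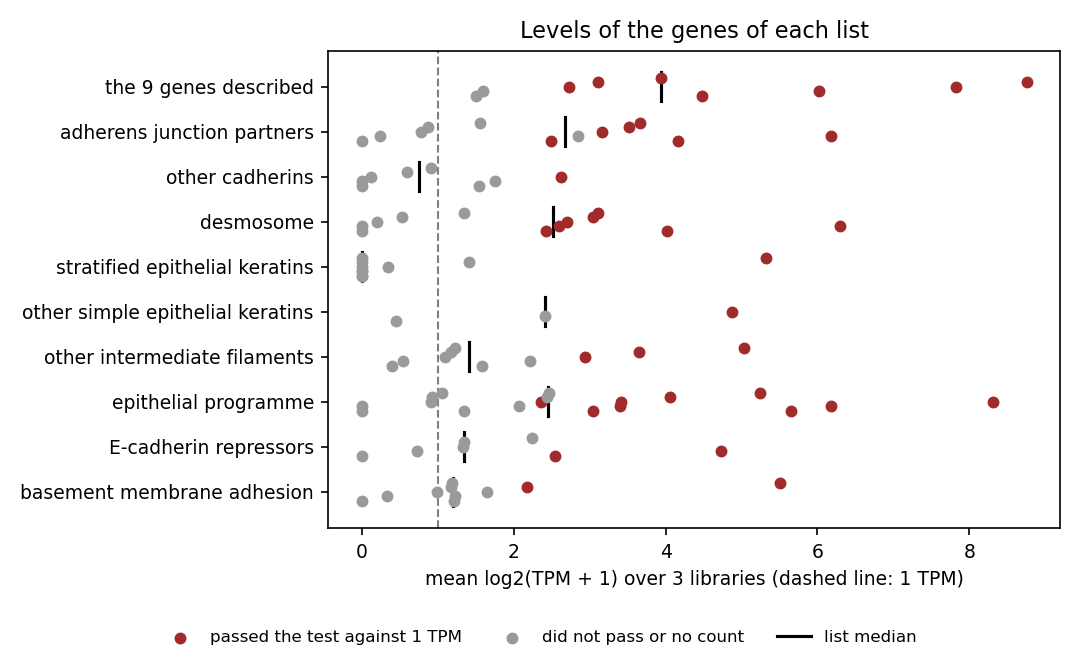
Mean log2(TPM + 1) over 3 libraries of the 9 genes and of every gene of the 9 pathway lists (cell type lists are not plotted), with the list median as a bar and the genes that passed the limma test in red. Of the groups plotted, the 9 genes have the highest median (3.95), and 7 of 10 stratified epithelial keratins lie at 0. Genes and lists were chosen with earlier results of these data known, which may have shaped this ranking.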

How the data were processed

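Per the labels' protocols, the SMART-Seq HT kit served to copy and amplify polyadenylated RNA, the KAPA Hyper Prep kit to make libraries, and sequencing was on an Illumina NovaSeq. The deposited table gives, per the file headers, whole-number counts per gene and FPKM (counts divided by a gene length and by the library total). The submitters' processing notes name HISAT2, StringTie, edgeR and GRCm39 without versions or roles. No source used here states the strand setting or the handling of reads that match several genes.

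Deposited FPKM values were rescaled to TPM within each library, and log2(TPM + 1) was used throughout, a scale that understates differences at low levels. Levels were tested against 1 TPM with limma 3.58.1 in R 4.3.3 (one-sided, a fitted intercept alone, variance trended on the mean). P-values were Benjamini-Hochberg adjusted over the 27265 genes counted in 1 library or more, and the threshold was 0.05. All 9 genes met that filter. Differences between genes were tested by the exact sign-flip permutation test over 3 libraries, adjusted over 8. Alternatives were pseudocounts of 0.1 and 5, CPM (tested against 1 CPM), genes counted in all 3 libraries, no trend and TMM scaling. Others were edgeR 4.0.16 quasi-likelihood on the counts and leaving out each replicate. Transcript and merged exon lengths from GENCODE M21 were added after seeing the data, and 25973 (95.3%) of tested genes had one. The total counts were 18460546, 15086854 and 14095521, and PCR copies carried no molecular identifiers, so intervals cover counting error only.

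The 9 genes and the lists were chosen with earlier results of these data known. Named genes are the 9, the 3 highest of each pathway list, all 7 Cdh1 repressors, the 2 highest of each cell type list, other Krt and Cdh genes that passed (at most 6 a family) and the 3 profiles nearest to Epcam, Krt18 and Cdh2. Other genes of the lists, Krt8-ps and the overlapping genes were named after their values were seen. Of the genes this rule names, 1 is not reported here.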

Additional observations from a re-analysis of the deposited data

How the results depend on the processing

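No paired analysis was possible because there is 1 group. The number of the 9 genes above 1 TPM was 7. It ranged from 5 to 7 when 1 library was left out (5 without replicate 1, 6 without replicate 2). In CPM, which is not divided by length, 9 passed, but against 1 CPM, a level that long genes meet more easily. The CPM counts below are against that level too. The number over all genes tested ranged from 8587 without replicate 1 to 12414 with edgeR's quasi-likelihood test. Other simple epithelial keratins above 1 TPM rose from 1 to 2 with edgeR, and ranged from 1 to 2 when 1 library was left out. Cdh1 repressors above 1 TPM went from 2 to 1 with a pseudocount of 5 and to 4 in CPM, and ranged from 1 to 2 when 1 library was left out. Basement membrane genes above 1 TPM went from 2 to 1 with a pseudocount of 5 and with merged exon lengths, and to 5 in CPM, and ranged from 1 to 2 when 1 library was left out. The cause was not tested. Over 108 genes of the text and lists and their alternatives, 1215 of 1283 comparisons kept their side of the threshold, 34 calls were gained and 34 lost. None of the 8 differences between genes changed the sign of its mean in any alternative run. Single libraries did change sign in CPM. There Krt8 was 0.903 times Krt7 in replicate 1, and Krt7 was 3.40-fold above Krt19 in replicate 3. With 3 libraries and an edgeR biological coefficient of variation of 0.939, levels near 1 TPM are not resolved.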
